A study of Mus musculus with 6 samples.

Results

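Naive CD4+ T cells labelled Zak-deficient were compared with wild-type (WT) cells after 48 h of stimulation, with 1 library on each side, 2 of the 6 libraries of the series. Genes were taken into the comparison when their mean over the 6 libraries was 1 FPKM or more, which held for 10347 of the 18446 genes in the table. FPKM is a level per transcript length, the fragments of a gene divided by its length and by the mapped fragments of the library. Of these genes, 42 were hepatocyte markers and were set aside, which left 10305. Igf2bp3 lay just inside the limit with a mean of 1.0 FPKM and AA414768 just outside with 0.998 FPKM.

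The library labelled Zak-deficient came from C57BL/6 mice with the genotype Zak-/-, and the WT library from C57BL/6 mice with no deletion named. Both sets of mice were 6 to 8 weeks old. The growth protocol calls the deficiency conditional and limited to T cells, while the genotype label reads as a general knockout, and no Cre line is named. The kind of deletion is therefore not settled. On both sides CD4+CD44loCD62Lhi cells, the surface type of helper T cells that have not met antigen, were sorted from spleen and lymph nodes. They were then cultured with antibodies that trigger the T cell receptor, through CD3, and the costimulator CD28. The number of mice behind a library is not given in the labels. The other 4 libraries held the same genotypes at 0 h and 6 h, 1 library each. No group had a replicate, so no difference below has a replicate check, no p-value is given, and a difference between 2 libraries may be a difference between 2 cultures.

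Zak, encoded by Map3k20, is a MAP kinase kinase kinase: it phosphorylates kinases that in turn switch on p38 and JNK. It is best known for sensing stalled or colliding ribosomes, the ribotoxic stress response. In T cells, p38, JNK and ERK act downstream of the T cell receptor and drive AP-1 factors, which help to turn on cytokine and activation genes.

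Map3k20 did not separate the labels at 48 h. It stood at 1.61 FPKM in the library labelled Zak-deficient, against 1.35 FPKM in WT. At 0 h the 2 levels were 0.10 FPKM under the label Zak-deficient and 0.17 FPKM in WT, and at 6 h 0.10 and 0.19 FPKM. Its mean over the 6 libraries was below 1 FPKM, so it is not among the genes counted. A value per gene adds up its transcripts and does not tell if 1 exon is missing, so the value neither bears out nor contradicts the label. Each direction below rests on that label.

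The 48 h libraries summed to 546113 FPKM under the label Zak-deficient and 539843 FPKM in WT, and the other 4 to between 496045 and 535248. The read depth is unknown. Of the CD4 T cell markers 12 were in the table, and 12 were above 0 in each of the 6 libraries. They summed to 2779 FPKM in the library labelled Zak-deficient and 2730 FPKM in WT at 48 h. The hepatocyte markers set the 48 h libraries apart from each other. Of 156 in the table, 71 were above 0 under the label Zak-deficient and 146 in WT. Their sums were 30.8 FPKM under the label Zak-deficient and 293 FPKM in WT.

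At 48 h the library labelled Zak-deficient differed from WT mainly in one direction. At least 2-fold higher under the label Zak-deficient were 184 of 10305 genes (1.79%), and at least 2-fold lower were 10 (0.097%). These counts depended on the settings: they were 55 higher and 3 lower with a pseudocount of 5 FPKM, 63 and 1 at a mean of 5 FPKM or more, and 70 and 6 once carriers of widely shared sequence, defined below, were left out. With a pseudocount of 0.1 FPKM 27 genes were lower, with no filter 16, and with the hepatocyte markers kept 45. All folds and log2 differences are on the log2(FPKM+1) scale, label Zak-deficient minus WT, which understates the change of low genes. At 1.5-fold, 355 genes (3.44%) were higher and 44 (0.427%) lower. At 0 h the 2-fold limit was passed by 22 higher and 5 lower genes, and at 6 h by 12 higher and 13 lower genes. Pnldc1 lay just past the 2-fold limit (2.01-fold) and Slc23a1 just short of it (1.995-fold).

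Most genes stood at nearly the same level. The median gene differed 1.06-fold at 48 h and 95% of genes differed by less than 1.40-fold, while the 99th percentile was 2.64-fold. At 0 h this percentile was 1.52-fold, and at 6 h it was 1.57-fold. The median log2 difference over the 10305 genes was -0.01, and 5541 of them (53.8%) were below 0. Of 58 gene lists with a counted member, 54 had no member past 2-fold, and 56 had a median within 0.15 of 0. The other 2 were the interferon-inducible GTPases and the Th1 and cytotoxic genes, both lower. With a pseudocount of 5 FPKM the Th1 and cytotoxic median was -0.10, within 0.15 of 0 as well.

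**Figure D1:**
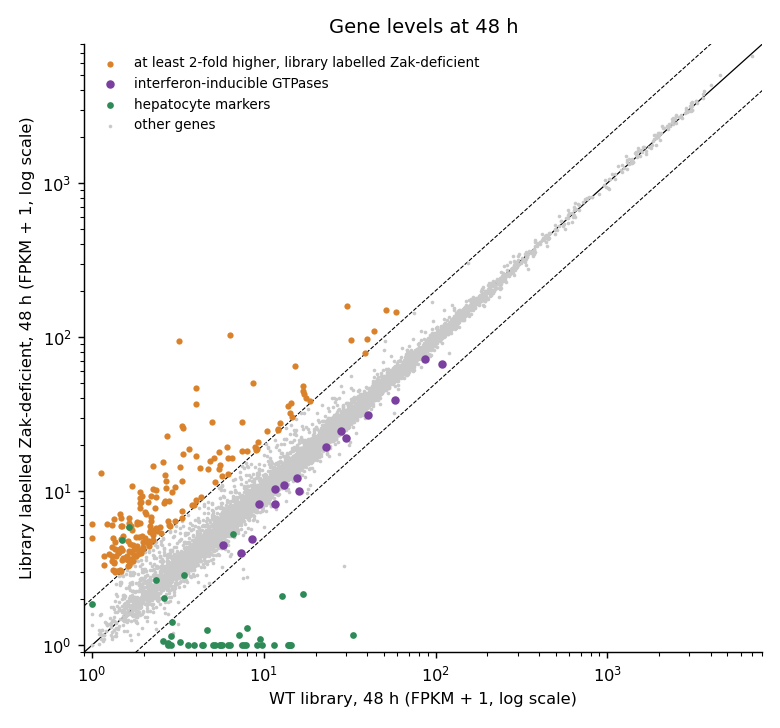
Level of each gene at 48 h in the library labelled Zak-deficient (vertical) and in the WT library (horizontal), as FPKM + 1 on log axes; each point is 1 gene of mean 1 FPKM or more, the solid line marks equal levels and the dashed lines 2-fold. Orange points mark the 184 genes at least 2-fold higher under the label Zak-deficient, most of them at low levels; purple points, the 16 interferon-inducible GTPases, lie between the line of equality and the lower dashed line, and most of the green hepatocyte markers lie near the bottom.

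**Figure D2:**
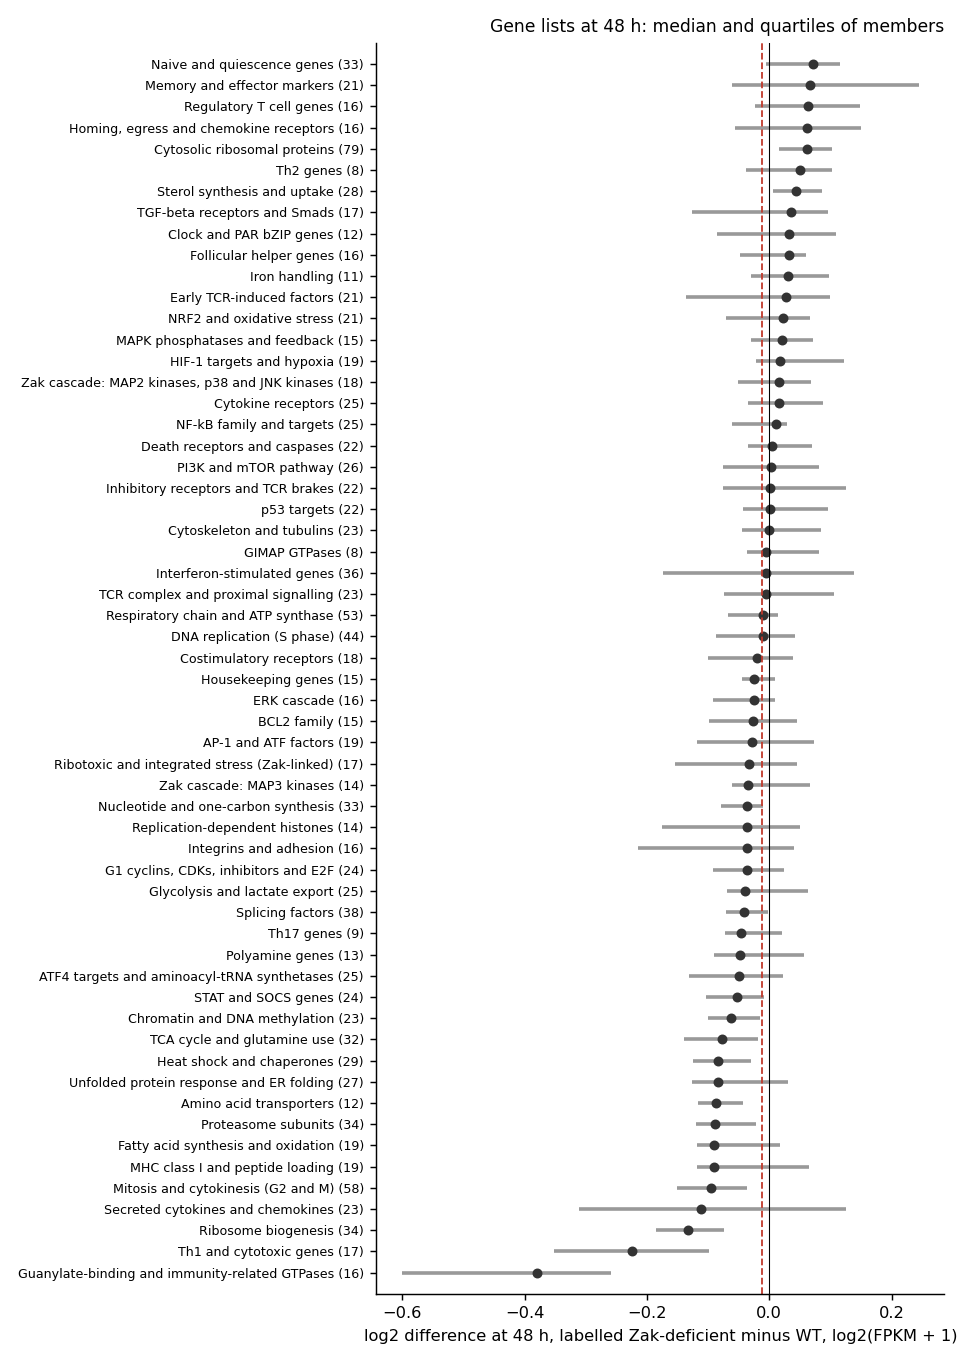
Median (point) and quartiles (bar) of the log2 difference at 48 h over the counted members of each gene list, with the number of members in brackets; the dashed line marks the median of all 10305 genes, -0.01. The GTPase list has the lowest median (-0.38) and the list of naive and quiescence genes the highest (0.07).

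The kinases around Zak and the genes they act on showed small differences. Among 14 counted MAP3 kinases, the tier to which Zak belongs, 0 passed 1.5-fold in either direction, and their differences ran from -0.09 to 0.14. Map3k12 had the largest, with 4.68 FPKM under the label Zak-deficient and 4.16 FPKM in WT. Map3k11, a kinase that also feeds JNK, stood at 40.4 FPKM under the label Zak-deficient and 37.0 FPKM in WT. Of 18 kinases in the p38 and JNK branch, 10 were above 0 and 8 below, and 0 passed 1.5-fold. Mapk14, the main p38 kinase, had 49.6 FPKM under the label Zak-deficient and 53.3 FPKM in WT. Mapk8, which encodes JNK1, had 7.49 and 7.15 FPKM in the same order. The widest gaps in this tier were Mapk12, the p38 gamma kinase, at 9.87 FPKM against 7.67 FPKM in WT, and Mapkapk3, a kinase activated by p38, at 24.6 FPKM against 29.8 FPKM in WT. Of the 16 ERK cascade genes, 10 were below 0 (62.5%, against 53.8% of all genes counted). Sos2, an activator of Ras, had the largest difference among them (8.19 FPKM against 9.75 FPKM in WT).

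AP-1 factors and MAP kinase feedback genes likewise stayed within 1.5-fold. Of 19 AP-1 and ATF factors, 11 were below 0 and 8 above, with a median of -0.03. The 3 lowest were Fosb (0.52 FPKM under the label Zak-deficient, 1.09 FPKM in WT), the stress-induced factor Atf3 (1.88 against 2.86 FPKM in WT) and Fosl1 (4.35 against 6.10 FPKM in WT). Each of these was at a low level. The more abundant Junb (83.5 against 79.7 FPKM in WT) and Jund (105 against 97.0 FPKM in WT) were close to WT. Among 15 phosphatases and feedback genes, 10 were above 0, led by Gadd45a (3.68 against 2.43 FPKM in WT), an activator of the p38 and JNK branch through Map3k4. Dusp2, a phosphatase of MAP kinases, had 148 FPKM under the label Zak-deficient and 138 FPKM in WT. Of 17 genes of ribotoxic and integrated stress, 12 were below 0 (70.6%, against 53.8% of all genes counted), with a median of -0.03. Gcn1, which binds stalled ribosomes, had 16.8 FPKM against 19.5 FPKM in WT, and the ribosome rescue factor gene Pelo 17.1 FPKM against 15.04 FPKM in WT.

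Genes for interferon-inducible GTPases were lower as a family in the library labelled Zak-deficient. These proteins, the guanylate-binding proteins (Gbp) and the immunity-related GTPases, attack the vacuoles of intracellular pathogens and are induced by interferons, in part through Irf1. Of 16 counted members, 16 were below 0 at 48 h, against 53.8% of all genes counted. Of the 16, 4 were past 1.5-fold, against 0.427% of all genes counted, and 0 past 2-fold. The median log2 difference was -0.38, with members from -0.89 to -0.19. At the earlier times the family had a median of -0.12 at 0 h, with 12 of 16 below 0, and of -0.40 at 6 h, with 15 of 16 below 0. The libraries at the 3 times are separate, but all rest on the same label. In bulk RNA, fewer cells that express a gene and less RNA per cell cannot be told apart.

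The promoters of 4 members are shown, since the family stood together and its known control runs through short interferon elements near the start site. Each run is 300 bases from RefSeq on GRCm38.p6 (the mm10 build), 250 before and 50 after the annotated start, read 5′ to 3′ on the gene's strand. Capitals mark the core of the interferon-stimulated response element on either strand: GAAA, any 2 bases, and GAAA again. Gbp2 is at chr3:142620413-142620712 (plus strand), Igtp at chr11:58199306-58199605 (plus strand), Tgtp2 at chr11:49064163-49064462 (minus strand) and Irgm1 at chr11:48871371-48871670 (minus strand).
Gbp2: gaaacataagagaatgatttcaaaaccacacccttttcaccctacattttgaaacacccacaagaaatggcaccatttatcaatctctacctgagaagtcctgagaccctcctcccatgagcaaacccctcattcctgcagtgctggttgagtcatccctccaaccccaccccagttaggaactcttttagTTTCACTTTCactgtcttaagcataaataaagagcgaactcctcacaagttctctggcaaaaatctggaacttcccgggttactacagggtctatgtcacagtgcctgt
Igtp: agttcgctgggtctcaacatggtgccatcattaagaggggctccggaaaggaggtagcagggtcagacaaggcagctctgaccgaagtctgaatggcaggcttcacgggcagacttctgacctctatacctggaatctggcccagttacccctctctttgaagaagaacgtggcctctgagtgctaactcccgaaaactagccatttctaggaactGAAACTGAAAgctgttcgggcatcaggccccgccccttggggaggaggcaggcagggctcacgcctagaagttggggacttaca
Tgtp2: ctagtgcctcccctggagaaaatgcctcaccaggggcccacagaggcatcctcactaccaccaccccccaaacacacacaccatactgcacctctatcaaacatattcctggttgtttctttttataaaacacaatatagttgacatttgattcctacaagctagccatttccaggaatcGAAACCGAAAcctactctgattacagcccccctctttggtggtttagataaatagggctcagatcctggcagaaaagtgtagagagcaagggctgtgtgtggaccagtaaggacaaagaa
Irgm1: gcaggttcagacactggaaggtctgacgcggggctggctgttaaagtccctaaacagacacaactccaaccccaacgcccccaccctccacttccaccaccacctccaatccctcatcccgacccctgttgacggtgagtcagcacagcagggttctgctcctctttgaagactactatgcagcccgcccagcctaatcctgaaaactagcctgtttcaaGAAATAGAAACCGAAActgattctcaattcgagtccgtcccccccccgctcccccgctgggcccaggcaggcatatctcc

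The first capitals begin 59 bases before the start in Gbp2, 34 in Igtp, 70 in Tgtp2 and 30 in Irgm1, where 2 matches overlap. Of the 16 counted members, 10 matched the RefSeq table by symbol, with 11 promoters, and 9 of these 11 held this core on either strand, against 3.4% of all 32851 promoters. TTCNNNGAA, the core of the gamma-activated site of interferon-induced genes, was in 6 of the 11, against 8.3% of all. The AP-1 motif TGANTCA was in 2 of the 11 (7.8% of all), the E-box CACGTG in 0 (7.2%), the NFAT core GGAAAA in 3 (23.4%), CCAAT in 2 (37.4%) and TGACG of the cyclic AMP response element in 1 (20.8%). Matches of different motifs may overlap. A match describes letters in this window, not binding, and no match says nothing of the factor. The 2 interferon motifs were chosen after the family's values were seen. These genes are known as interferon-inducible, so a high share of interferon motifs could be foreseen and is no result of these libraries. The 11 promoters include those of the near-identical Tgtp1 and Tgtp2, so they are not 11 separate observations.

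Gbp2 was the most abundant of the guanylate-binding protein genes at 48 h. It stood at 65.9 FPKM in the library labelled Zak-deficient and at 108 FPKM in WT, 1.63-fold lower. At 6 h it had 14.4 FPKM under the label Zak-deficient and 24.2 FPKM in WT, and at 0 h 11.2 FPKM under the label Zak-deficient and 12.2 FPKM in WT. The gap was thus wide at 6 h and 48 h and narrow at rest. Gbp4 (30.02 FPKM against 39.5 FPKM in WT), Gbp5 (21.2 against 29.0 FPKM in WT) and Gbp6 (7.25 against 10.7 FPKM in WT) were between 1.31-fold and 1.41-fold lower at 48 h. Gbp3, Gbp8 and Gbp9 were within 1.2-fold.

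Among the immunity-related GTPases, Igtp stood at 37.9 FPKM under the label Zak-deficient and 56.8 FPKM in WT at 48 h. At 6 h it had 46.4 FPKM against 61.2 FPKM in WT, and at 0 h 45.4 FPKM against 51.1 FPKM in WT. Igtp was thus lower under the label Zak-deficient at each time. Iigp1 (2.96 against 6.32 FPKM in WT) had the widest difference of the family, 1.85-fold. Tgtp2 (3.86 against 7.48 FPKM in WT) and Tgtp1 (8.95 against 14.97 FPKM in WT) are near-identical copies whose reads can be shared between them, so their separate values are uncertain, though both were lower. Irgm1 and Irgm2, regulators of the family, were 1.28-fold and 1.2-fold lower.

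**Figure D3:**
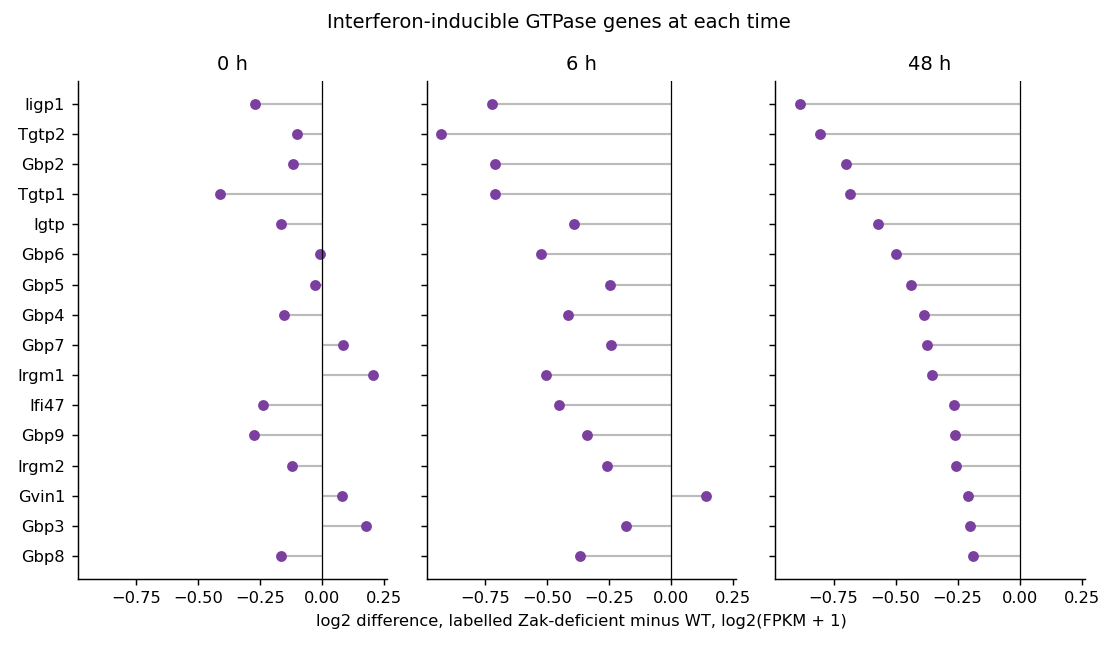
Difference of each counted interferon-inducible GTPase gene at 0 h, 6 h and 48 h (horizontal axis, log2(FPKM+1), label Zak-deficient minus WT; each point is the difference of 2 libraries, and the vertical line marks 0). At 48 h all 16 points lie left of the line, at 6 h 15 do, with Gvin1 to the right, and at 0 h 12 do.

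Irf1, a transcription factor that induces this family, was lower too. It stood at 35.7 FPKM under the label Zak-deficient and 46.7 FPKM in WT at 48 h, and at 47.8 FPKM against 60.8 FPKM in WT at 6 h. Ifng, the gene for interferon gamma, was near the lower end of the table in both 48 h libraries, with 0.05 FPKM under the label Zak-deficient and 0.23 FPKM in WT. Nlrc5, an activator of MHC class I genes that interferon induces, stood at 10.7 FPKM against 13.7 FPKM in WT.

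Other interferon-stimulated genes went both ways at 48 h. Of 36 counted members, 18 were above 0 and 18 below at 48 h, with a median near 0, whereas at 6 h 32 of 36 were below 0 (median -0.23). Past 2-fold were Isg15, a ubiquitin-like modifier, and Slfn5, a Schlafen family member, both higher. Isg15 stood at 9.67 FPKM under the label Zak-deficient and 2.02 FPKM in WT, and Slfn5 at 4.82 FPKM and 1.48 FPKM in the same order. At 6 h Isg15 was lower, with 6.94 FPKM against 9.15 FPKM in WT, so its direction was not the same at both times. Below 0 at 48 h were Parp14 (6.47 against 8.75 FPKM in WT), Dtx3l (9.38 against 12.8 FPKM in WT) and the nucleic acid sensor gene Zbp1 (18.1 against 23.2 FPKM in WT).

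MHC class I genes were uneven. H2-Q4, a class Ib gene, stood at 302 FPKM under the label Zak-deficient and 153 FPKM in WT, 1.97-fold higher, and H2-T23, which encodes Qa-1, at 162 FPKM against 124 FPKM in WT. The classical gene H2-K1 had 635 FPKM against 599.7 FPKM in WT, and the peptide transporter gene Tap1 58.1 FPKM against 63.5 FPKM in WT. Of 19 counted members 11 were below 0. Class I genes are near-identical to one another, so single values among them are uncertain.

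Th1 and cytotoxic genes were mostly lower. Of 17 counted members, 15 were below 0 (88.2%, against 53.8% of all genes counted) and 1 above, with a median of -0.22. Only 1 passed 1.5-fold. The median was -0.10 with a pseudocount of 5 FPKM, within 0.15 of 0 like most other lists, and -0.32 with one of 0.1 FPKM. The member past 1.5-fold was Lta, lymphotoxin alpha, at 19.8 FPKM under the label Zak-deficient and 30.7 FPKM in WT. Its levels at 6 h had been nearly equal, at 93.0 FPKM under the label Zak-deficient and 88.4 FPKM in WT. Gzmb, the gene for the cytotoxic protease granzyme B, stood at 6.42 FPKM against 9.36 FPKM in WT. The chemokine gene Ccl4 (MIP-1 beta) had 13.1 FPKM against 18.1 FPKM in WT, and Ccl3 (MIP-1 alpha) 6.01 FPKM against 7.52 FPKM in WT. Il12rb1, a chain of the IL-12 receptor, stood at 14.4 FPKM against 18.1 FPKM in WT. Xcl1, the chemokine lymphotactin, was the member above 0, with 8.75 FPKM against 6.21 FPKM in WT.

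The same list had a median of 0.06 at 0 h and 0.07 at 6 h, with 6 and 7 of 17 members below 0. Markers of natural killer and CD8 T cells, the other cells that express cytotoxic genes, summed to 18.8 FPKM under the label Zak-deficient and 13.3 FPKM in WT at 48 h. Of 16 in the table, 11 were above 0 under the label Zak-deficient and 6 in WT. Of all 18446 genes in the table, 1777 were at 0 under the label Zak-deficient and 2793 in WT at 48 h. No difference in cell content is therefore read from the counts above 0. Cd8b1, a carrier of the shared sequences described below, was the most abundant, at 12.04 FPKM against 8.11 FPKM in WT, while Cd8a had 0.74 and 0.77 FPKM. Both sums rest mostly on Cd8b1, so they say little of the other markers. The part of such cells in the lower Th1 and cytotoxic genes was not tested.

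Other lineage lists had medians between -0.05 and 0.06. Foxp3, the lineage factor of regulatory T cells, stood at 7.65 FPKM under the label Zak-deficient and 5.90 FPKM in WT. Of 16 regulatory T cell genes 11 were above 0, against 45.9% of all genes counted. Gata3, the Th2 factor, had 7.19 FPKM against 6.26 FPKM in WT, and Csf2, which encodes GM-CSF, 0.90 FPKM against 1.64 FPKM in WT. Of 16 follicular helper genes 9 were above 0 and 7 below, and Bcl6, their factor, was at 5.88 FPKM against 5.6 FPKM in WT.

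Secreted cytokines and chemokines had log2 differences from -0.61 to 4.86, the last being the highest of all genes counted. Of 23 counted, 2 were past 2-fold and higher, Il11 and the chemokine gene Ccl9, and 13 were below 0. Il11 stood at 92.7 FPKM under the label Zak-deficient and 2.22 FPKM in WT; it belongs to the group of higher genes described further on. Besides Lta, lower members included Tnfsf11, the gene for RANKL (13.04 against 17.6 FPKM in WT), Lif (2.10 against 2.93 FPKM in WT) and Il2, the T cell growth factor (11.4 against 13.6 FPKM in WT). Tnfsf10, which encodes the death ligand TRAIL, was higher (5.05 against 3.44 FPKM in WT).

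Genes of cytokine signalling were close to WT. Of 24 STAT and SOCS genes, 20 were below 0 (83.3%, against 53.8% of all genes counted), with a median of -0.05. Among the lowest were the feedback inhibitor genes Socs3 (4.01 against 5.66 FPKM in WT) and Cish (12.03 against 15.1 FPKM in WT) and the kinase gene Jak2 (56.3 against 67.8 FPKM in WT). Of 25 cytokine receptor genes, 15 were above 0. Lifr, the receptor of leukaemia inhibitory factor, was highest among them (2.39 against 0.70 FPKM in WT, 1.99-fold). Ifnar1, a chain of the type I interferon receptor, stood at 33.8 FPKM against 22.6 FPKM in WT. Il2ra, which encodes CD25 of the IL-2 receptor, had 95.4 FPKM against 89.6 FPKM in WT. Both Lifr and Ifnar1 carry sequences shared by many transcripts, a feature described below.

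Costimulatory and inhibitory receptors had medians near 0, with 1 member past 1.5-fold in each list. Tnfrsf14, the receptor HVEM, stood at 35.0 FPKM under the label Zak-deficient and 20.8 FPKM in WT, and at 40.4 FPKM against 29.1 FPKM in WT at 6 h. Lag3, an inhibitory receptor that binds MHC class II, stood at 38.5 FPKM against 25.3 FPKM in WT, and at 9.04 FPKM against 3.48 FPKM in WT at 6 h. At 0 h both genes were nearly equal between the labels, Lag3 with 0.69 FPKM under the label Zak-deficient and 0.70 FPKM in WT, and Tnfrsf14 with 46.9 and 45.5 FPKM. Ctla4 (61.2 against 70.4 FPKM in WT) and Tnfrsf4, the receptor OX40 (127 against 145 FPKM in WT), were slightly lower. Pdcd1, which encodes PD-1, had 97.2 FPKM against 93.3 FPKM in WT. In the T cell receptor complex, Cd3e stood at 288 FPKM against 248 FPKM in WT.

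Naive and quiescence genes, which decline on activation, leaned higher in the library labelled Zak-deficient. Of 33 counted, 23 were above 0 and 10 below, with a median of 0.07, while 45.9% of all genes counted were above 0. Of the 33, 0 passed 1.5-fold. Klf2, a Krüppel-like factor that keeps T cells quiescent, stood at 45.5 FPKM under the label Zak-deficient and 31.3 FPKM in WT. Its levels at 0 h were 312 FPKM under the label Zak-deficient and 317 FPKM in WT. Rasgrp2, a Rap activator, had 14.3 FPKM against 10.1 FPKM in WT, and Pik3ip1, an inhibitor of PI3K, 14.04 FPKM against 10.6 FPKM in WT. Satb1, a chromatin organiser, ran the other way with 50.8 FPKM against 59.4 FPKM in WT. Of the homing genes, 10 of 16 were above 0, among them the chemokine receptor gene Cxcr4 (14.7 against 9.53 FPKM in WT) and S1pr4 (44.5 against 35.0 FPKM in WT), a sphingosine phosphate receptor. Ccr7, a chemokine receptor of lymph node homing, was at 212 FPKM against 219 FPKM in WT.

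Genes of dividing cells leaned lower by small amounts. Of 58 counted genes of mitosis and cytokinesis, 53 were below 0 (91.4%, against 53.8% of all genes counted), with a median of -0.10. Mki67, which encodes the Ki-67 protein of dividing cells, had 75.2 FPKM under the label Zak-deficient and 92.6 FPKM in WT. Ccnb1, which encodes cyclin B1, had 42.1 FPKM against 51.6 FPKM in WT, and the kinetochore motor gene Cenpe 9.49 FPKM against 11.8 FPKM in WT. Top2a, a topoisomerase of dividing cells, had 135 FPKM against 156.26 FPKM in WT. Spc24, a kinetochore subunit gene, was the one member past 2-fold and was higher, at 149.9 FPKM against 50.6 FPKM in WT. Other subunit genes of its complex did not share this: Nuf2 had 33.5 FPKM against 38.02 FPKM in WT.

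For S phase genes 29 of 44 were below 0 (65.9%, against 53.8% of all genes counted), but the median of -0.01 was that of all genes. Under the 3 scalings 29 to 32 were below 0. By the alternative centring for GC content and length, 23 were below 0 and 21 above, so no lean is read from this list. The differences ran from -0.17 to 0.18, with Orc1, of the origin recognition complex, at 6.02 FPKM against 6.89 FPKM in WT, and the polymerase subunit gene Pole2 at 29.9 FPKM against 26.3 FPKM in WT. Of 24 genes of the G1 machinery 17 were below 0 (median -0.04). Among nucleotide and one-carbon genes 25 of 33 were below 0, but Tyms, thymidylate synthase, stood at 93.4 FPKM against 49.5 FPKM in WT (1.87-fold higher). At 6 h Tyms had been lower, with 22.9 FPKM against 31.9 FPKM in WT.

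Ribosome biogenesis and ribosomal protein genes leaned in opposite directions. Of 34 biogenesis genes, which build ribosomes in the nucleolus and are driven by Myc, 29 were below 0 (85.3%, against 53.8% of all genes counted). Their median was -0.13. Nolc1, a nucleolar phosphoprotein, stood at 75.9 FPKM under the label Zak-deficient and 91.3 FPKM in WT, and Polr1a, the large subunit of RNA polymerase I, at 20.2 FPKM against 23.8 FPKM in WT. Myc itself had 87.0 FPKM against 98.8 FPKM in WT. Of 79 cytosolic ribosomal protein genes, 63 were above 0, against 45.9% of all genes counted, with a median of 0.06. Rps21 stood at 1488 FPKM against 1276 FPKM in WT, and Rpl23 at 737 FPKM against 648 FPKM in WT. At 6 h the ribosomal protein list had leaned the other way, with 71 of 79 below 0 and a median of -0.19.

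Several lists of protein and energy metabolism were slightly below 0. Of all genes counted, 53.8% were below 0. The share below 0 was 29 of 34 for proteasome subunits, 24 of 29 for chaperones, 25 of 32 for the TCA cycle and glutamine use, and 11 of 12 for amino acid transporters, with medians of -0.09, -0.08, -0.08 and -0.09. Hspd1, the mitochondrial chaperonin, had 275 FPKM against 342 FPKM in WT. Slc3a2, the heavy chain of the large neutral amino acid transporter, stood apart from its list at 169 FPKM against 94.9 FPKM in WT, while its partner Slc7a5 had 84.2 FPKM against 86.9 FPKM in WT. Of 28 sterol genes 22 were above 0 (median 0.04), against 45.9% of all genes counted. The glycolysis gene Ldha had 921 FPKM against 1014 FPKM in WT. Of 15 housekeeping genes 10 were below 0, with Gapdh at 3000.4 FPKM against 3103 FPKM in WT and Actb at 2056 FPKM against 2002 FPKM in WT.

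Genes of cell death had medians of 0.00 for death receptors and caspases and -0.03 for the BCL2 family. Tnfrsf10b, the mouse TRAIL receptor, stood at 46.8 FPKM under the label Zak-deficient and 15.9 FPKM in WT (2.83-fold higher), and the adaptor gene Fadd at 14.1 FPKM against 8.39 FPKM in WT. At 6 h Tnfrsf10b had 21.0 FPKM against 22.3 FPKM in WT. Of 22 p53 targets 11 were above 0 and 11 below. Cdkn1a, the cell cycle inhibitor p21, had 65.2 FPKM against 59.0 FPKM in WT, and the BH3-only gene Bbc3, known as Puma, 27.4 FPKM against 23.6 FPKM in WT.

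Few of the 184 genes at least 2-fold higher under the label Zak-deficient were on a gene list. Of them 6 (3.3%) were, against 12.1% of all genes counted: Il11, Isg15, Spc24, Tnfrsf10b, Slfn5 and Ccl9. In WT at 48 h, 82 of the 184 were below 1 FPKM; a low WT level is favoured by the choice of these genes, so nothing is read from it. The mean of the 2 libraries at 48 h was below 5 FPKM for 115 (62.5%), against 21.2% of all. Gene models, RIKEN genes or genes with no symbol made up 25 (13.6%), against 3.1% of all.

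Several of the highest are known from other tissues. Il11 encodes a cytokine of stromal cells. Its 6 values were 24.6 FPKM under the label Zak-deficient and 11.3 FPKM in WT at 0 h, 11.1 and 11.2 FPKM at 6 h, and 92.7 and 2.22 FPKM at 48 h. The muscle gene Smco1 stood at 42.0 FPKM under the label Zak-deficient and 21.7 FPKM in WT at 0 h, 19.6 and 16.99 FPKM at 6 h, and 102 and 5.39 FPKM at 48 h. Both genes thus had their highest of 6 values at 48 h under the label Zak-deficient and their lowest at 48 h in WT.

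The same order held for Gje1, a connexin family gene (24.8 FPKM under the label Zak-deficient, 2.38 FPKM in WT at 48 h), Npy1r, a neuropeptide Y receptor gene (13.6 against 1.26 FPKM in WT), and Grk1, rhodopsin kinase (27.0 against 4.02 FPKM in WT). The zinc finger gene Zfp457 had 45.6 FPKM against 3.05 FPKM in WT. Genes with known roles in most cells were among the 184 as well. Of those given next, Chek2 and Mbd4 were on no gene list and not among the 25 largest differences. They are examples chosen apart from those sets. The checkpoint kinase gene Chek2 stood at 36.4 FPKM against 13.4 FPKM in WT; the DNA glycosylase gene Mbd4 at 34.6 FPKM against 12.8 FPKM in WT; and Sirt5, a mitochondrial deacylase, at 27.3 FPKM against 6.5 FPKM in WT.

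**Figure D4:**
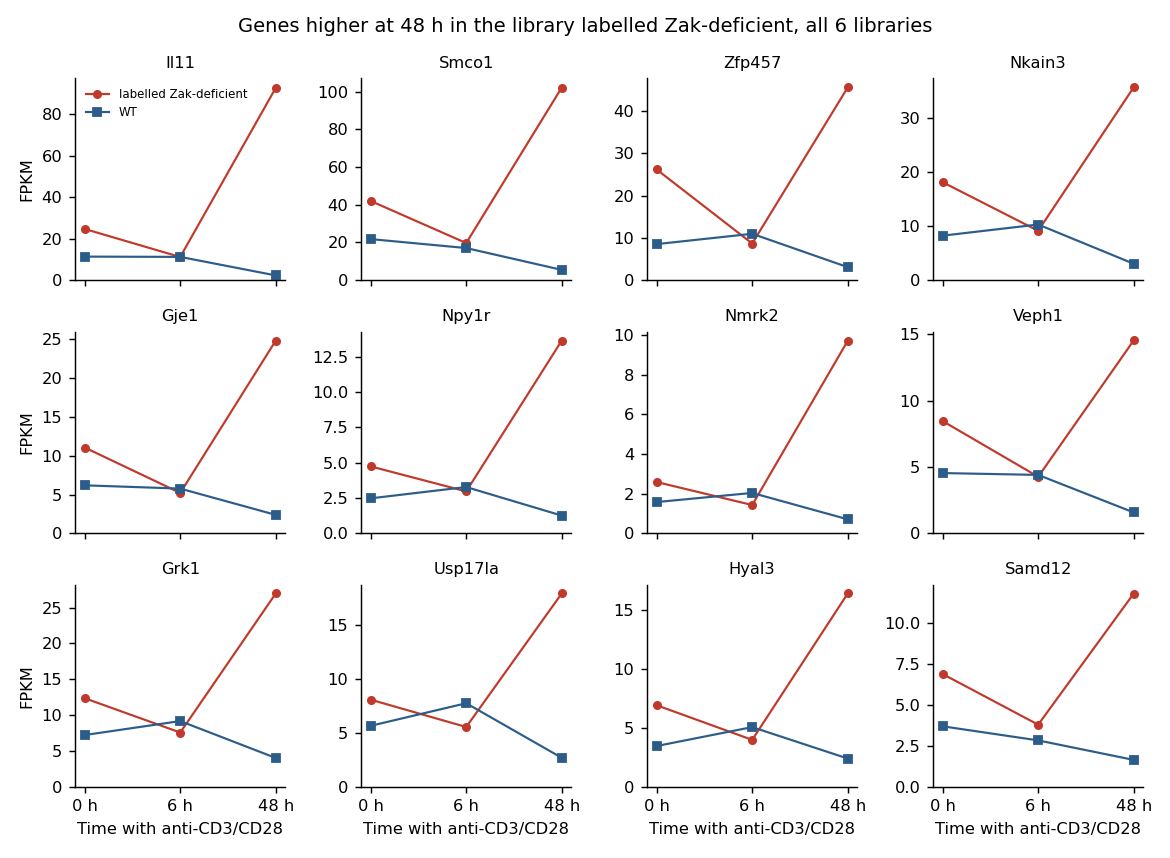
FPKM of 12 of the genes with the largest log2 differences at 48 h (near-identical copies among those left out) at 0 h, 6 h and 48 h; red circles are the libraries labelled Zak-deficient and blue squares WT, 1 library a point, each panel on its own linear axis from 0. At 48 h the red point of each gene is its highest of 6 and the blue point its lowest of 6, while at 6 h the 2 points lie close together.

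In the libraries at other times, the 184 genes leaned higher at 0 h and lower at 6 h. At 0 h 169 of 184 were above 0, with a median log2 difference of 0.32, against 47.3% of all genes counted. At 6 h 55 of 184 were above 0, with a median of -0.13, against 46.7% of all genes. Past 2-fold and higher were 10 of them at 0 h and 2 at 6 h. The 48 h library labelled Zak-deficient was the highest of 6 for 167 of the 184, against 17.8% of all genes. The 48 h WT library was the lowest of 6 for 155, against 20.8% of all. The choice of these genes by their 48 h difference favours both counts.

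These genes often carried sequence that many transcripts share. A 24-base run counted as shared if transcripts of at least 50 genes held it, simple repeats left out, and 1221 such runs were found. At least 1 was present in 106 of the 176 higher genes with a transcript (60.2%), against 3071 of 10169 genes counted (30.2%). The most widespread run, known from B1 repeats, short interspersed elements of rodent genomes, was present on either strand in 41 of the 176 (23.3%), against 7.2% of genes counted. Among genes that carry a shared run 3.45% were at least 2-fold higher, and among those without 0.99% were. Il11, Smco1, Gje1, Npy1r, Spc24, Tnfrsf10b, Slfn5, Chek2, Mbd4 and Sirt5 are carriers, and Zfp457, Grk1, Isg15 and Tyms are not. The part of shared sequence in the differences was not tested. The log2 difference was weakly related across genes to GC content (Spearman's rho 0.09) and transcript length (-0.14, 10169 genes, which share the 2 libraries).

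Genes lower under the label Zak-deficient were few. Of the 10 past 2-fold, 4 were further liver genes outside the marker list, Mup15, Mup10, Mup16 and Mgst1, named after their values were seen. Another 3 were gene models and 1 had no symbol. Of the 2 that remained, Zbed5 stood at 1.74 FPKM under the label Zak-deficient and 6.53 FPKM in WT. Tmem254b had 2.25 FPKM against 28.2 FPKM in WT, and its near-identical copy Tmem254c had 25.5 FPKM against 2.34 FPKM in WT. At 0 h the pair ran the other way, with Tmem254b at 20.5 FPKM against 4.26 FPKM in WT and Tmem254c at 0.97 FPKM against 20.7 FPKM in WT. Reads of such a pair can be given to either copy.

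When only genes averaging at least 5 FPKM at 48 h were ranked, the 25 lowest named genes ran from 1.35-fold to 8.98-fold lower. They held 6 GTPases described above (Tgtp2, Gbp2, Tgtp1, Igtp, Gbp6 and Gbp5), and Lta, Gzmb and Ccl4. Also lower were Tmem258, a subunit of the oligosaccharyltransferase (78.2 against 119 FPKM in WT), Gimap7, a GTPase of lymphocytes (22.9 against 33.4 FPKM in WT), the RNA helicase gene Mov10 (8.85 against 13.1 FPKM in WT) and Stc2, a stanniocalcin induced by stress (4.64 against 7.39 FPKM in WT). Apoe, an apolipoprotein of liver and macrophages, stood at 4.84 FPKM against 8.99 FPKM in WT. Of these 25 genes, 18 were below 0 and 6 above at 0 h, and 18 were below 0 and 7 above at 6 h. Of all genes counted, 47.3% were above 0 at 0 h and 46.7% at 6 h. The 25 hold the 6 GTPases and near-identical copies, so they are not 25 separate observations. Chromosome 2, which carries Map3k20, held 6 of the 25, Eif3j1, Slc28a2b, Shf, Zfp972, Tfpi and Nup35, and 824 (8.02%) of the 10268 counted genes with a known chromosome. Over all counted genes of chromosome 2, 5 were at least 1.5-fold lower and 23 at least 1.5-fold higher. Eif3j1 (31.0 against 56.4 FPKM in WT) has a near-identical copy, Eif3j2, that was higher (21.9 against 1.73 FPKM in WT), and Slc28a2b also has close copies, so these values are uncertain.

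Hepatocyte markers were lower together under the label Zak-deficient. Of the 42 that passed the expression limit, 35 were at least 2-fold lower under the label Zak-deficient and 2 were at least 2-fold higher. At 48 h, 23 of the 42 were at 0 under the label Zak-deficient and 1 in WT. Alb, serum albumin, was listed at 0 under the label Zak-deficient and at 13 FPKM in WT at 48 h. At 0 h it had 8.64 FPKM under the label Zak-deficient and 8.39 FPKM in WT, and at 6 h 6.29 and 9.5 FPKM. The major urinary protein gene Mup2 stood at 0.16 FPKM against 32.0 FPKM in WT at 48 h, and Apoa2, an apolipoprotein gene, at 1.15 FPKM against 15.9 FPKM in WT. The 2 higher ones, the bile acid transporter gene Slc10a1 (4.82 against 0.65 FPKM in WT) and coagulation factor gene F10 (3.83 against 0.49 FPKM in WT), carry shared sequences.

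**Figure D5:**
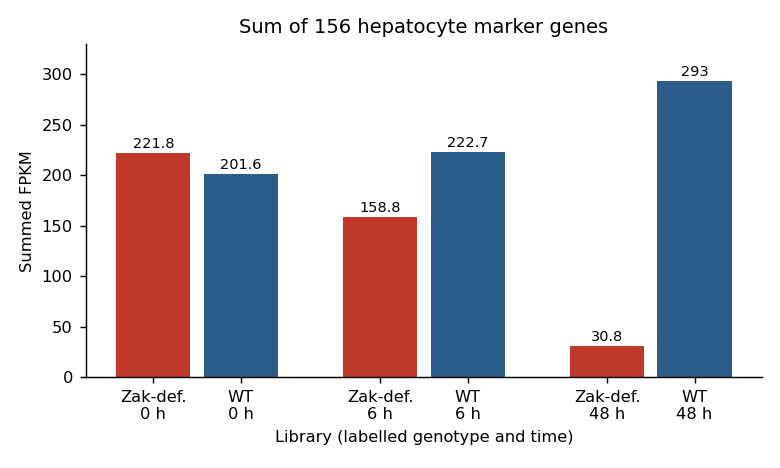
Summed FPKM of the 156 hepatocyte markers in each library, with the library labelled Zak-deficient left of WT at each time and the sum printed above its bar. At 48 h the sum is 30.8 FPKM under the label Zak-deficient, and it lies between 158.8 and 293 FPKM in the other 5 libraries.

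The low sum belonged to the 48 h library labelled Zak-deficient alone among the 6. The markers made up 0.0056% of all FPKM there and 0.0543% in WT at 48 h, and between 0.0313% and 0.0447% in the other 4 libraries. The source of these transcripts was not tested.

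Markers of other blood cells differed less. At 48 h B cell markers summed to 91.2 FPKM under the label Zak-deficient and 75.8 FPKM in WT, most of it from Cd37 (73.7 and 65.8 FPKM), which T cells also express. Myeloid and dendritic markers summed to 74.3 and 62.0 FPKM in the same order, most of it from Cd74 (45.5 and 40.5 FPKM). Neutrophil and mast cell markers summed to 17.3 FPKM under the label Zak-deficient and 3.4 FPKM in WT, mostly from Cxcr2 (15.9 against 3.05 FPKM in WT), one of the 184 higher genes and a carrier of a shared sequence. S100a8 and S100a9, which define neutrophils, had 0.34 and 0.60 FPKM under the label Zak-deficient and were listed at 0 in WT. Camp, Ltf and Retnlg went the other way, listed at 0 under the label Zak-deficient and at 0.1, 0.08 and 0.1 FPKM in WT. All of these levels were low, so no neutrophil content is read from them. Of the 11 in the table, 8 were above 0 under the label Zak-deficient and 5 in WT. Fewer genes of the whole table were at 0 under the label Zak-deficient (1777) than in WT (2793), so nothing is read from these counts. The part of the marker genes in the differences above was not tested.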

How the data were processed

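RNA sequencing gave 1 FPKM value per gene in each of 6 libraries, and these deposited values were the starting point. The submitters' processing notes name Bowtie, RSEM and the mm10 build, without versions. Per the labels' protocols, RNA was taken up in Trizol, cleaned on a column and run on a HiSeq. Of 18446 NCBI gene identifiers, 18326 had a symbol in the RefSeq table and 120 had none.

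Levels were compared as log2(FPKM+1) with no scaling of the libraries. With a single library in each group no test was made. Genes counted had a mean of at least 1 FPKM over the 6 libraries. A list is described by its counts and its median beside all genes counted. Genes named are list members, the largest differences first, and the 25 largest differences each way at a mean of 5 FPKM or more at 48 h, without gene models and antigen receptor segments; the text marks any other choice, and some genes of these sets are not reported here. The members, lists, markers and alternatives were chosen with earlier results of these data known. GC content, length and shared runs came from GENCODE M21 transcripts, found for 98.7% of genes counted. Alternatives changed the pseudocount, filter, scaling, fold limit and members. The calculation was tested on simulated data. Python 3.11.15, numpy 2.4.6, pandas 2.3.3 and matplotlib 3.10.9 were used.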

Additional observations from a re-analysis of the deposited data

Results flagged for a closer look

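For 5 genes given here the response from 0 h to 48 h ran at least 2-fold one way under the label Zak-deficient and at least 2-fold the other way in WT; with 1 library per group this difference was not tested. The values are the log2 response under the label Zak-deficient minus that in WT. The difference was 3.80 for Il11, whose response was 1.87 under the label Zak-deficient and -1.93 in WT. Smco1 differed by 3.09 (1.26 under the label Zak-deficient, -1.83 in WT) and Gje1 by 2.19 (1.10 and -1.09 in the same order). These 3 genes carry sequence shared by many transcripts. Tmem254c differed by 6.45 (3.75 under the label Zak-deficient, -2.70 in WT) and its near-identical copy Tmem254b by -5.20 (-2.72 under the label Zak-deficient, 2.47 in WT).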

How the results depend on the processing

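No paired analysis was possible because the 48 h comparison has 1 library on each side and comes from no test; no replicate could be left out for the same reason. The counts depended on the pseudocount, the filter, the fold limit and the genes set aside. Against 184 genes higher and 10 lower, a pseudocount of 0.1 FPKM gave 268 and 27, one of 5 FPKM 55 and 3, no filter 235 and 16, and a mean of 5 FPKM or more 63 and 1. The 1.5-fold rule gave 355 and 44 and the 4-fold rule 38 and 3. Without genes that carry a shared sequence 70 were higher and 6 lower among the 7098 genes left. With the hepatocyte markers kept 186 were higher and 45 lower, and with Mup10, Mup15, Mup16 and Mgst1 set aside, an alternative chosen after seeing the data, 6 were lower. The 3 scalings gave 180 to 182 higher and 10 lower, and centring on GC content and transcript length, also chosen after seeing the data, 188 and 10. The GTPase median lay between -0.42 and -0.31 in the 11 alternatives. Of the 58 list medians, 12 changed sign under a scaling or the centring, none of them further from 0 than 0.03 as reported, so no direction is read from these. Other medians changed sign under the remaining alternatives. That of Th17 genes, -0.05, ran from -0.06 to 0.02, and that of replication-dependent histones, -0.04, from -0.09 to 0.06. For clock genes, at 0.03, the range was -0.01 to 0.04. No direction is read from these lists either. Beyond 0.1 log2 moved the Th1 and cytotoxic median, to -0.10 with a pseudocount of 5 FPKM, and the cytokine median, to 0.00 with no filter; the cause was not tested. No named gene past 2-fold changed its direction. The depth of the libraries is unknown, so no counting error can be given for low values.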

Other observations

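Genes listed at 0 were unevenly spread between the 48 h libraries. Under the label Zak-deficient 1777 genes were at 0, against 2793 in WT. Above 0 under the label Zak-deficient and at 0 in WT were 1672 genes, with a median of 0.06 FPKM, and the reverse held for 656, also with a median of 0.06 FPKM. Of the 1672, 11 reached 1 FPKM, led by the gene model Gm10408 at 5.10 FPKM; of the 656, 31 did, led by the hepatocyte gene Apoc1 at 13.4 FPKM in WT. Of those with a transcript, carriers of a shared sequence made up 104 of 1553 (6.7%) above 0 only under the label Zak-deficient and 31 of 615 (5.0%) above 0 only in WT. The share of 30.2% given above is for genes of mean 1 FPKM or more, an unlike set. No share over genes of such low levels was taken, so neither gain nor loss of carriers is read.

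Memory and effector markers showed no common direction at 48 h: 13 of 21 were above 0 and 8 below, with a median of 0.07. Id3, an inhibitor of E proteins, stood at 108 FPKM under the label Zak-deficient and 81.6 FPKM in WT, and Anxa2, an annexin, at 44.5 FPKM and 34.6 FPKM in the same order. Ifitm3, an interferon-induced membrane protein gene, had 0.89 FPKM against 2.18 FPKM in WT. Of 16 integrin and adhesion genes 11 were below 0 (68.8%, against 53.8% of all genes counted). Among them were the memory marker gene Cd44 (9.67 against 11.6 FPKM in WT) and Itgb1 (22.03 against 26.3 FPKM in WT). Smad3, a mediator of TGF-beta signals, had 3.68 FPKM against 5.14 FPKM in WT.

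At 48 h the marker lists of other tissues gave sums of similar size under both labels. Stromal markers summed to 40.0 FPKM under the label Zak-deficient and 40.2 FPKM in WT, most of it from Pecam1 (38.1 and 38.5 FPKM). Skeletal muscle markers summed to 11.7 and 10.7 FPKM in the same order, most of it from Mylpf (9.65 and 9.47 FPKM). These sums thus say little of the other stromal and muscle markers. Erythroid and platelet markers summed to 1.5 and 2.2 FPKM, and pancreas markers to 1.4 and 1.2 FPKM, in the same order. Of 824 counted genes on chromosome 2, which carries Map3k20, 5 (0.61%) were at least 1.5-fold lower under the label Zak-deficient, and of 9444 genes elsewhere 35 (0.37%) were; at least 1.5-fold higher were 23 and 328 in the same order.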
